A study of Mus musculus with 107 samples.

Results

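The genes described here are 9 that handle or sense retinoids and thyroid hormone: Aldh1a1, Aldh1a2, Aldh1a3, Crabp1, Crabp2, Rlbp1, Dhrs3, Rarb and Dio2. They were picked by symbol from the 27179 genes counted in every library, and all 9 were found. The choice was made with results of these data in view, and Rarb stood in it for its increase in neural progenitor cells (NPC) held in hydrogel over NPC held in medium. The levels in hydrogel and medium therefore chose the gene, and that contrast is described here without a test.

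Vitamin A (retinol) is oxidised reversibly to retinal and then irreversibly to retinoic acid, which binds nuclear receptors on the DNA of its target genes. The ALDH1A enzymes carry out the irreversible step, DHRS3 returns retinal to retinol, the cellular binding proteins CRABP1 and CRABP2 carry retinoic acid in the cell, and CYP26 enzymes destroy it. In the nervous system the meninges make retinoic acid, and NPC in culture are commonly pushed to a neural fate with it. Thyroid hormone is handled in a parallel way in the brain and cord, where astrocytes carry the deiodinase DIO2, which turns thyroxine into the active hormone.

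RNA bound to tagged ribosomes was sequenced in 107 libraries of 23 groups. In this RiboTag method the ribosomal protein Rpl22 gains a haemagglutinin (HA) tag once Cre has cut its gene, and an antibody to the tag pulls down the ribosomes with their mRNA from a lysate. The embryonic stem cells (ESC, n = 4) were 1 female C57BL/6 RiboTag line in which Sox2-cre had recombined the tag, kept in medium with 15% fetal bovine serum (FBS). Every NPC and graft was made from that line by exposure of embryoid bodies to 50 nM retinoic acid with purmorphamine for 4 days and then expansion with EGF and FGF at 100 ng/ml in a supplement free of vitamin A, so all of them share an early dose of retinoic acid.

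The NPC cultures were a first derivation sampled at passages 5, 15 and 30 (P5, P15 and P30, with 4 libraries for each passage) and, at passage 15, the derivations named D2 (n = 6) and D3 (n = 4). Differentiation lasted 4 days in EGF and FGF at 1 ng/ml, either alone (spontaneous differentiation) or with 100 ng/ml CNTF, 100 ng/ml IGF-1, FBS at 1, 5, 10 or 20%, or CNTF with 5% FBS (n = 4 each). NPC were passed through a pipette in medium, in DCH, a synthetic polypeptide hydrogel, or in DCH after 4 hours in it (n = 5 each). The sources used here do not give the passage or derivation of the NPC that were differentiated, pipetted or grafted. Treatment and source of the cells therefore cannot be told apart where those groups are compared with NPC P15. Host astrocytes carried RiboTag through the Gfap-Cre 73.12 transgene and came from cords that were healthy (n = 9) or 14 days past a crush at T10 (n = 5). Grafts of NPC were recovered at 14 days from uninjured cord, crush injury (SCI) or double crush SCI, and at 5 days from SCI (n = 5 each). NPC were grafted 2 days after injury into young adult mice, through a glass pipette with the DCH hydrogel as carrier. Grafts therefore differ from cultured NPC in pipetting and hydrogel too. The series text counts recovery from injury and the methods of the study count it from grafting, so both readings of 5 and 14 days are possible.

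Total counts ran from 12286240 to 147764968 per library. The 5-day grafts and NPC P15 D2, 11 libraries in all, name a single read file and held 12286240 to 18085106 counts, and the other 96 held at least 30473157, so read type cannot be told apart from group in comparisons of those groups with others. Hosts and grafts, the latter labelled as NPC, expressed astrocyte genes. The summed level of 8 of them was 42577 to 49895 CPM (counts scaled to a common library total) in healthy host astrocytes and 6960 to 28944 CPM in grafts. Both also held RNA of other cell types. The 6 genes of myelinating oligodendrocytes summed to 5901 to 12494 CPM in healthy hosts, 23722 to 39654 CPM in injured hosts, where their median of 35490 CPM was above that of the astrocyte genes (33382 CPM), and 12241 to 28082 CPM in uninjured grafts, where it was too (22460 against 13576 CPM). In the other graft groups they ran from 1456 to 12796 CPM. The 6 neuronal genes summed to 185 to 420 CPM in hosts and 110 to 4480 CPM in grafts. In these bulk samples fewer cells of a type and less RNA per cell cannot be told apart. The study describes its culture work as done with independent biological replicates, but neither it nor the labels tie a library to a separate culture, so p-values for cultures measure the spread between these samples, which may be technical.

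Groups were compared with edgeR's quasi-likelihood test over all genes, and a gene was called at a Benjamini-Hochberg adjusted p (FDR) below 0.01. Levels are CPM of the library total unless FPKM (CPM per kilobase of exon) is named. A gene is said to be at the floor in a library that holds no more than 3 counts of it.

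Promoter windows of 250 bases before to 50 bases after the transcription start were held by the RefSeq table of GRCm38.p6 for 7 of the 9 genes, in 10 windows. They were searched on both strands for direct repeats spaced by 1, 2, 4 or 5 bases, the layout bound by retinoid and thyroid hormone receptors, of half-sites that read AGGTCA in the common form, AGTTCA in its first variant, GGGTCA in a further one and GGTTCA in the last, and for the cAMP response element TGACGTCA. Only Rarb held a direct repeat, spaced by 5, and only Dio2 held the cAMP response element. The repeat spaced by 5 occurred in 32 of 32851 windows (0.0974%) and the cAMP response element in 588 (1.79%). The 3 stretches below show these matches, in capitals, in Rarb, in Dio2 and in Cyp26a1, a retinoic acid hydroxylase that moved in the grafts.
Rarb, chr14:16575473-16575569, minus strand: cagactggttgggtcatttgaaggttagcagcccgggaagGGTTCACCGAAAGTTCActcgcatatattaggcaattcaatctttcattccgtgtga
Cyp26a1, chr19:37697736-37697832, plus strand: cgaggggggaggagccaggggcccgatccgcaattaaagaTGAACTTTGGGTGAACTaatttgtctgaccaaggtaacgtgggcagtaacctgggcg
Dio2, chr12:90739086-90739173, minus strand: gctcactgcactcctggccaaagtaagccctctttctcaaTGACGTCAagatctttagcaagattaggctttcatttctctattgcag
The Rarb repeat lay from -53 to -37 of the start. The Cyp26a1 repeat lay from -32 to -16 and reads as a repeat on the strand opposite to the one printed. The Dio2 element lay from -95 to -88. A match is a run of letters and no evidence of binding.

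**Figure D1:**
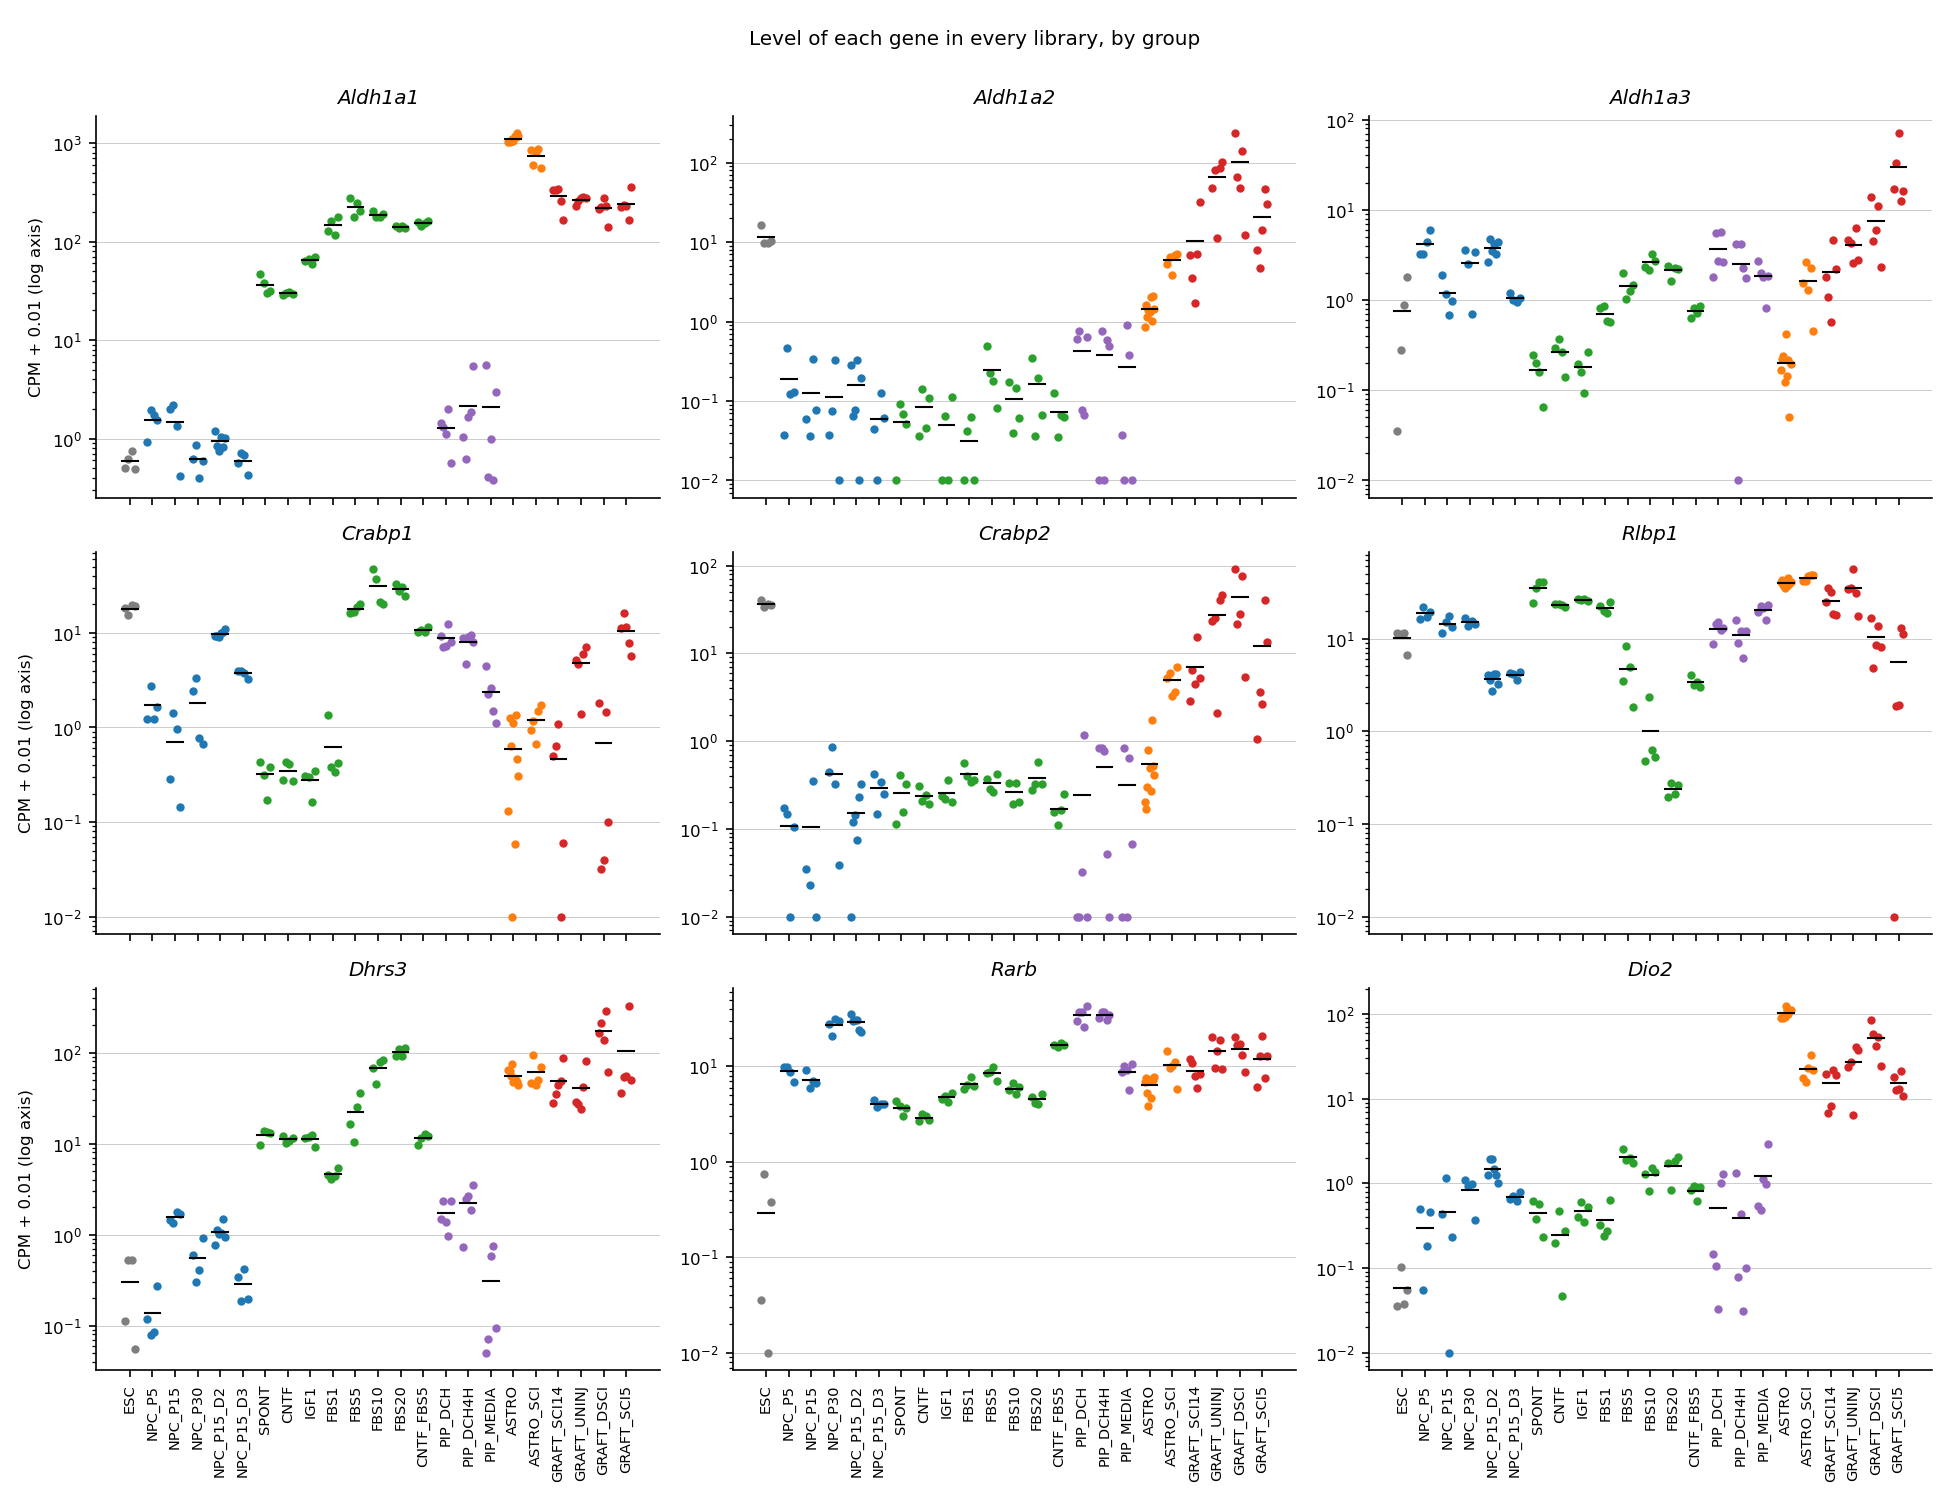
Level of each of the 9 genes in every library (points, CPM + 0.01 on a log axis) with the group mean (line), for stem cells (grey), NPC (blue), differentiated NPC (green), pipetted NPC (purple; PIP_MEDIA medium, PIP_DCH hydrogel, PIP_DCH4H 4 hours in hydrogel), host astrocytes (orange; ASTRO healthy, ASTRO_SCI injured) and grafts (red; UNINJ uninjured cord, SCI14 and SCI5 crush at 14 and 5 days, DSCI double crush). SPONT is spontaneous differentiation. Aldh1a1 and Dio2 peaked in healthy host astrocytes, Aldh1a2 and Crabp2 in double crush grafts and Rarb in NPC in hydrogel.

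Between NPC P15 and ESC, 4 of 8 tested were called, with Rarb higher and Aldh1a2, Crabp1 and Crabp2 lower, where 67.2% of all genes were called. From NPC P5 to P30, Rarb alone of 8 was called, higher, against 35.5% of all genes. Spontaneous differentiation against NPC P15 called 5 of 8, with Aldh1a1, Rlbp1 and Dhrs3 higher and Rarb and Aldh1a3 lower, against 57.2% of all genes. The share of the 8 called in each of these 3 comparisons was near or below that of all genes.

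Against spontaneous differentiation, CNTF called 1 of 8 (Rlbp1, lower), where 19.9% of genes were called, and IGF-1 called 1 of 8 (Aldh1a1, higher), where 6.55% were. FBS at 1% called 4 of 8, with Rarb, Aldh1a1 and Aldh1a3 higher and Dhrs3 lower, against 8.78% of genes. These 3 comparisons share their 4 control libraries. From 1% to 20% FBS 6 of 8 were called, with Aldh1a3, Crabp1, Dhrs3 and Dio2 higher and Rarb and Rlbp1 lower, against 60% of genes. CNTF added to 5% FBS called 5 of 8, with Rarb higher and Aldh1a1, Aldh1a3, Crabp1 and Dio2 lower, against 23.3% of genes. The difference between the effects of CNTF with and without serum was called for Rarb alone of 8, against 22.9% of genes. A fit over all 23 groups together left 1 of the 4 calls for 1% FBS and none of the 5 for CNTF in 5% FBS, whose FDR there ran from 0.0995 for Rarb to 0.701 for Crabp1.

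NPC kept 4 hours in hydrogel against NPC pipetted in hydrogel without the wait had 0 of the 6 genes tested called by edgeR, against 0.32% of genes, with 0 at an unadjusted p below 0.05 and 0 called by DESeq2. Against NPC P15 they had 2 of 9 called, Rarb and Crabp1, both higher, against 30.9% of genes. Rarb was chosen for its level in hydrogel, so its call here does not stand apart from that choice.

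In host astrocytes SCI called 5 of 9, with Aldh1a2, Aldh1a3 and Crabp2 higher and Aldh1a1 and Dio2 lower, against 41.1% of genes. Grafts in SCI at 14 days against NPC P15 had 6 of 9 called, all higher (Aldh1a1, Aldh1a2, Crabp2, Rlbp1, Dhrs3 and Dio2), against 52% of genes. Against grafts at 5 days they had 2 called, Aldh1a3 and Crabp1, both lower, against 5.3% of genes. Against grafts in uninjured cord they had 0 of 9 called by edgeR, against 4.64% of genes, with 3 at an unadjusted p below 0.05 and 1 (Crabp1) called by DESeq2. Grafts in double crush against uninjured cord had 1 called, Dhrs3, higher, against 4.19% of genes. Grafts in SCI against host astrocytes after SCI had 2 called, Aldh1a1 and Rlbp1, both lower, against 14.6% of genes. The effect of injury differed between grafts and host astrocytes for 5 of 9 (Aldh1a1, Aldh1a2, Aldh1a3, Crabp2 and Dio2), against 16.8% of genes. These comparisons share graft, host and NPC P15 libraries.

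Aldh1a1, the retinal dehydrogenase of adult astroglia, was the most abundant of the 9 genes per length in healthy host astrocytes. Its level in FPKM there was 225, against 18.8 for Dhrs3, 17.7 for Dio2, 13.5 for Rlbp1, 1.21 for Rarb and 0.0408 for Aldh1a3. It ranged from 0.581 ± 0.121 CPM (SD, n = 4) in ESC and 0.587 to 1.52 CPM on average in the NPC groups to 1109 ± 81.7 CPM (n = 9) in healthy host astrocytes. The next levels down were 737 ± 148 in hosts after SCI and 218 to 287 on average in the 4 graft groups, whose libraries overlapped. The 9 healthy hosts ran from 1013 to 1251 with a median of 1094 CPM, and none overlapped with any other group.

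After spontaneous differentiation Aldh1a1 was 24.8-fold above NPC P15, and with NPC P15 D3 as reference the log2 fold change was 6.04 (FDR = 2.15e-10). The libraries held 1.96, 2.21, 1.32 and 0.405 CPM in NPC P15 and 46.6, 37.9, 30.3 and 31.2 CPM after differentiation (log2 fold change 4.72 ± 0.39 SE, FDR = 1.13e-06). Adding 1% FBS gave 129, 161, 116 and 177 CPM, which was 3.99-fold above spontaneous differentiation (FDR = 2.99e-05). Spontaneous differentiation overlapped neither NPC P15 nor 1% FBS.

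The level of Aldh1a1 reached 226 ± 42.2 CPM in 5% FBS and returned to 141 ± 3.58 CPM in 20%. From 1% to 20% FBS no difference was detected (log2 fold change -0.07 ± 0.10, FDR = 0.53). IGF-1 gave 63.2, 66.3, 58.8 and 69.8 CPM, all above the control libraries (log2 fold change 0.87 ± 0.13, FDR = 0.00488), and the call was lost without spontaneous differentiation replicate 3 or 4 or any 1 of the IGF-1 libraries (FDR 0.0176 to 0.0241). CNTF in 5% FBS gave 156, 143, 154 and 161 CPM against 275, 179, 244 and 206 in 5% FBS alone, and the groups did not overlap (log2 fold change -0.63 ± 0.11, FDR = 0.00177).

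Injury lowered Aldh1a1 in host astrocytes to 66.5% of the healthy mean. The 5 injured hosts held 842, 596, 812, 876 and 560 CPM, all under the healthy range (log2 fold change -0.78 ± 0.11, FDR = 1.36e-05, and FDR = 0.0138 in the fit over all groups). In the same libraries the median sum of the 8 astrocyte genes was 48008 CPM in healthy and 33382 CPM in injured hosts, with overlapping ranges, and that of the 6 myelinating oligodendrocyte genes 8210 and 35490 CPM, without overlap. Their part in the result was not tested. Grafts in uninjured cord held 230, 259, 278, 280 and 279 CPM and grafts in SCI at 14 days 334, 333, 343, 257 and 167 CPM, and these overlapped (FDR = 0.186). The effect of SCI on Aldh1a1 was higher by 1.11 ± 0.19 on the log2 scale in grafts than in hosts (FDR = 6.85e-05). Grafts in SCI stood at 38.9% of the level in hosts after SCI (FDR = 0.000123), while their summed astrocyte markers were 11502 to 23974 CPM against 26132 to 44880 CPM. The part of that difference in the result was not tested.

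Aldh1a2, the retinal dehydrogenase of the embryo and of the meninges, was close to absent from every group of cultured, differentiated or pipetted NPC, with group means from 0.0213 to 0.418 CPM. It was high in ESC (16.4, 9.64, 9.63 and 10.3 CPM), and NPC P15 held 0.05, 0.0258, 0.325 and 0.0675 CPM, with 2 of 4 libraries at the floor (log2 fold change -6.70 ± 0.68, FDR = 3.54e-06). The largest levels were in grafts. Grafts in uninjured cord held 47.5, 81.5, 11.4, 84.5 and 102 CPM, and grafts in double crush 234, 66.6, 48, 142 and 12.3 CPM. Grafts in SCI held 6.78, 3.57, 1.7, 7.01 and 32.2 CPM at 14 days and 7.98, 4.68, 14.3, 46.1 and 30 CPM at 5 days.

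The groups of grafts overlapped in Aldh1a2, with single libraries far from the rest in each. Against NPC P15 the 14-day grafts in SCI were higher by 6.91 ± 1.20 on the log2 scale (FDR = 0.000334). Against grafts in uninjured cord they differed by -2.29 ± 0.75, which was not called (FDR = 0.0568). Without replicate 5 of the 14-day grafts in SCI this difference was -3.59 with FDR = 0.00167, and in the fit over all groups it was -2.34 with FDR = 0.00706. In host astrocytes Aldh1a2 rose 4.16-fold after SCI, from a median of 1.38 CPM (0.839 to 2.07, n = 9) to 5.27, 6.5, 3.87, 6.92 and 7.05 CPM, without overlap (FDR = 3.01e-06). The effect of SCI on Aldh1a2 in grafts minus that in hosts was -4.19 ± 0.77 on the log2 scale (FDR = 0.000172).

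Crabp2, a carrier that delivers retinoic acid to its receptors, followed Aldh1a2 in its extremes. It was high in ESC (40.6, 33.3, 36.5 and 35.4 CPM) and fell to 0.025, 0.0129, 0.341 and 0 CPM in NPC P15, where 3 of 4 libraries were at the floor (log2 fold change -8.65 ± 0.61, FDR = 1.48e-07). All other culture groups had means of at most 0.49 CPM. Grafts in uninjured cord held 23.6, 25.5, 2.08, 40 and 46.1 CPM, and grafts in double crush 90.2, 21.4, 28, 76.6 and 5.41 CPM.

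In SCI the grafts held 2.87, 6.47, 4.47, 15.4 and 5.28 CPM of Crabp2 at 14 days and 1.06, 3.61, 2.63, 40.2 and 13.4 CPM at 5 days. The 14-day grafts were above NPC P15 (log2 fold change 6.50 ± 1.18, FDR = 0.000454) and overlapped the grafts in uninjured cord (log2 fold change -1.72 ± 0.63, FDR = 0.0886). In host astrocytes Crabp2 rose 9.4-fold after SCI, from a median of 0.4 CPM (0.157 to 1.72, n = 9) to 5.15, 6.03, 3.28, 3.57 and 7 CPM (FDR = 1.73e-05). For Crabp2 the effect in grafts minus that in hosts was again below 0 (log2 difference -4.84 ± 0.83, FDR = 8.02e-05).

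In uninjured and double crush grafts the library lowest in Aldh1a2 and Crabp2 was also the lowest in Slc6a13, a transporter of leptomeningeal cells picked from the fibroblast list after its values were seen. Replicate 3 of the grafts in uninjured cord was the lowest of its group in all of them, with 9.05 CPM of Slc6a13, 11.4 of Aldh1a2 and 2.08 of Crabp2, while its 4 companions held at least 15.8, 47.5 and 23.6 CPM. In double crush, replicate 1 was the highest in Slc6a13 (136 CPM), Aldh1a2 and Crabp2, and replicate 5 the lowest in them (15 CPM of Slc6a13). In SCI at 14 days the genes parted: replicate 5 was highest in Slc6a13 (19.4 CPM) and Aldh1a2 (32.2 CPM) and held 5.28 CPM of Crabp2, while replicate 4 was highest in Crabp2 (15.4 CPM) with 7.01 CPM of Aldh1a2. Healthy hosts held 0.0717 to 1.87 CPM of Slc6a13 and injured hosts 1.62 to 3.18 CPM.

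The whole list of 9 meningeal or perivascular fibroblast genes was detected in all grafts and hosts, none at the floor throughout a group. Its summed level was 1719 to 4509 CPM in uninjured grafts, 1076 to 3931 CPM in SCI at 14 days, 7289 to 27972 CPM in double crush, 6004 to 17951 CPM in SCI at 5 days, 149 to 255 CPM in healthy hosts and 622 to 1423 CPM in injured hosts. The list did not follow Aldh1a2 throughout: the 5-day grafts in SCI were above the uninjured grafts in this sum, while their Aldh1a2 ran from 4.68 to 46.1 CPM against 11.4 to 102 CPM. The 5 endothelial genes summed to 34.5 to 318 CPM in uninjured grafts, 22.9 to 67.3 CPM in SCI at 14 days and 65.5 to 562 CPM in double crush. The 8 myeloid genes summed to 190 to 1428, 521 to 1791 and 1014 to 11116 CPM in the same groups. Their part in the levels of Aldh1a2 and Crabp2 was not tested.

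**Figure D2:**
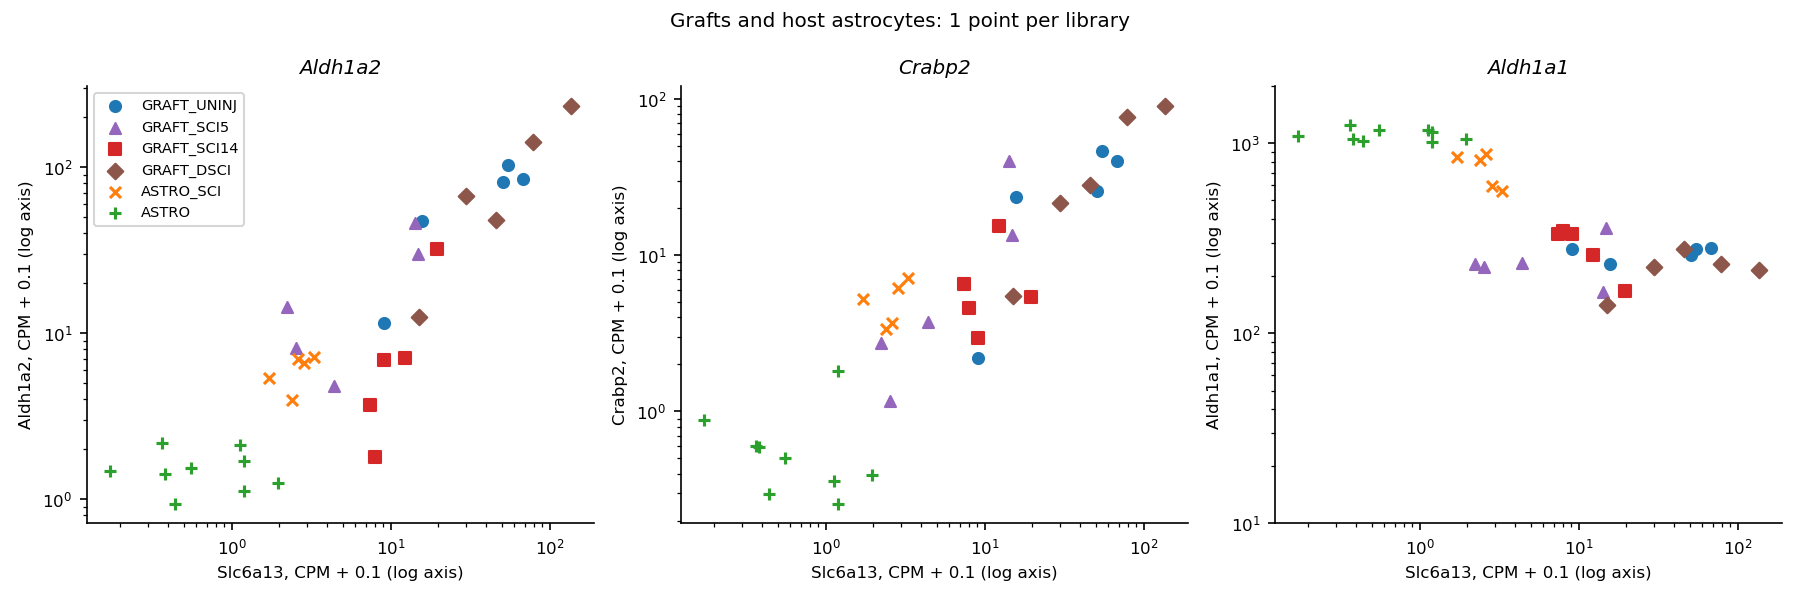
Aldh1a2, Crabp2 and Aldh1a1 (y axes) against Slc6a13 (x axis), each as CPM + 0.1 on log axes, with 1 point per graft or host library. Slc6a13 was picked from the list of 9 fibroblast genes after its values were seen, and the sum of that list did not follow Aldh1a2 throughout. Double crush replicate 1 was at the top in Slc6a13, Aldh1a2 and Crabp2 (136, 234 and 90.2 CPM), while Aldh1a1 was highest in healthy hosts, which held the least Slc6a13.

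Aldh1a3, the retinal dehydrogenase of the developing eye and nose, was the scarcest of the 3 enzymes in healthy hosts. Its highest group mean was that of grafts at 5 days in SCI, 29.7 ± 24.0 CPM (17.2, 32.7, 70.4, 12.4 and 16.1), and at 14 days the grafts in SCI held 1.8, 1.07, 0.56, 4.68 and 2.2 CPM, without overlap (log2 fold change -3.63 ± 0.64, FDR = 0.00318). The call was lost without replicate 1 or 2 of the 14-day grafts (FDR = 0.0125 and 0.0128). The 5-day libraries are the shallow ones, and read type cannot be told apart from day. Sums of marker genes also did not overlap between 5 and 14 days: fibroblast genes ran from 6004 to 17951 and from 1076 to 3931 CPM, the 4 myofibroblast genes from 275 to 1289 and from 75.1 to 175 CPM, and the 6 oligodendrocyte precursor genes from 563 to 1342 and from 1633 to 4022 CPM. Their part in the result was not tested. Grafts at 14 days in uninjured cord held 2.53 to 6.33 CPM.

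In host astrocytes Aldh1a3 rose 8.63-fold after SCI, from a median of 0.187 CPM (0.0412 to 0.411, n = 9) to 1.52, 2.65, 1.28, 2.24 and 0.44 CPM (FDR = 3.29e-05). For Aldh1a3 too the effect in grafts was below that in hosts (log2 difference of effects -3.62 ± 0.82, FDR = 0.00163). In culture the gene stood near 1 CPM in NPC P15 (1.9, 1.16, 0.666 and 0.967) and fell to 0.234, 0.193, 0.147 and 0.0553 CPM on spontaneous differentiation (FDR = 0.00234). That call was lost without spontaneous differentiation replicate 3 (FDR = 0.0106).

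Serum raised Aldh1a3 4.43-fold at 1% over none (FDR = 0.00399) and again 3.04-fold from 1% to 20% (FDR = 3.62e-05). The first call was lost without spontaneous differentiation replicate 3 or 1% FBS replicate 1, 2 or 3 (FDR 0.011 to 0.0187), and neither held in the fit over all groups (FDR = 0.0459 and 0.0538). CNTF in 5% FBS gave 0.625, 0.808, 0.704 and 0.843 CPM against 1.99, 1.01, 1.25 and 1.47 (log2 fold change -1.01 ± 0.23, FDR = 0.00723). That call was lost on leaving out each library except 5% FBS replicate 2 (FDR 0.0111 to 0.0264).

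Crabp1, a carrier linked to retinoic acid breakdown, was highest in 10% and 20% FBS and next in ESC. ESC held 18.1, 15.3, 19.8 and 19.1 CPM and NPC P15 0.275, 1.42, 0.961 and 0.135 CPM (log2 fold change -4.75 ± 0.58, FDR = 1.67e-05). The other NPC cultures lay between, with 9.76 ± 0.756 CPM (n = 6) in D2 and 3.74 ± 0.316 CPM in D3. Spontaneous differentiation held 0.417, 0.306, 0.162 and 0.373 CPM, not called against NPC P15 (FDR = 0.252), but lower by 3.49 on the log2 scale (log2 fold change -3.49, FDR = 1.27e-07) when NPC P15 D3 was the reference.

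Crabp1 rose with serum. Its levels were 1.35, 0.373, 0.329 and 0.409 CPM in 1% FBS, 16.4, 16.5, 18.6 and 20.1 in 5%, 46.8, 36.8, 21 and 20.2 in 10% and 32.5, 27.9, 30.3 and 24.6 in 20%. From 1% to 20% the increase was 46.9-fold (log2 fold change 5.51 ± 0.33, FDR = 1.73e-08), and the libraries of 5% and above lay over all of those at 1%. CNTF in 5% FBS gave 10.1, 10.8, 10.3 and 11.6 CPM (log2 fold change -0.82 ± 0.09, FDR = 0.00015).

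In SCI the grafts held 11.2, 16.1, 11.6, 7.75 and 5.66 CPM of Crabp1 at 5 days and 0.491, 0.627, 1.09, 0 and 0.0494 CPM at 14 days, where 2 of 5 libraries were at the floor (log2 fold change -4.39 ± 0.90, FDR = 0.00765). The call was lost on leaving out each library except replicate 4 of either group, with FDR up to 0.0243. Read type cannot be told apart from day here either. The marker sums that differ between these groups, given for Aldh1a3, moved here too and their part was not tested. Grafts in uninjured cord held 5.1, 4.63, 1.39, 5.92 and 7.01 CPM, above all 5 of the 14-day grafts in SCI (log2 fold change -3.21 ± 1.16), and this was not called by edgeR (FDR = 0.0823) but was by DESeq2 (adjusted p = 0.00542) and in the fit over all groups (FDR = 7.02e-05). Grafts in double crush held 1.79, 0.022, 0.0302, 1.44 and 0.0901 CPM, with 2 of 5 libraries at the floor (log2 fold change -2.69 against uninjured cord, FDR = 0.207, and FDR = 0.000716 in the fit over all groups).

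Rlbp1, which binds retinal and retinol in glia of the retina, was not detectably changed by SCI in host astrocytes and fell with serum. Healthy hosts held a median of 40.9 CPM (34.9 to 44.6, n = 9) and injured hosts 41.5, 41.9, 47.1, 48.2 and 48.9 CPM (log2 fold change 0.02 ± 0.08, FDR = 0.868). Spontaneous differentiation gave 24.4, 35, 40.3 and 41.2 CPM against 11.5, 15.2, 17.6 and 13.3 in NPC P15, without overlap (log2 fold change 1.42 ± 0.18, FDR = 4.24e-05). Against NPC P15 D3 the log2 fold change was 3.19 (FDR = 5.4e-09).

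Across serum concentrations Rlbp1 fell from 22.2, 19.7, 19 and 24.7 CPM in 1% FBS to 3.46, 8.37, 4.94 and 1.81 in 5%, 0.462, 2.35, 0.612 and 0.516 in 10% and 0.185, 0.263, 0.202 and 0.254 in 20%. The last was 1.06% of the first (log2 fold change -6.58 ± 0.15, FDR = 6.45e-12). The difference between 1% FBS and no serum was not called (FDR = 0.0109) but was by DESeq2 (adjusted p = 0.00026), without the filter on low counts (FDR = 0.00627), with DESeq2 size factors (FDR = 0.00995) and without spontaneous differentiation replicate 1 (FDR = 0.000429). CNTF without serum gave 23.3, 23.5, 23.2 and 22.1 CPM (log2 fold change -0.59 ± 0.14, FDR = 0.00918), a call that was lost without spontaneous differentiation replicate 3 or 4 or any 1 of the CNTF libraries (FDR 0.0273 to 0.032) and in the fit over all groups (FDR = 0.433). IGF-1 had 25.2 to 27 CPM (FDR = 0.0767, and FDR = 0.00664 without spontaneous differentiation replicate 1).

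Grafts at 14 days in SCI held 24.5, 35.1, 31.7, 18.6 and 18 CPM of Rlbp1, above NPC P15 (log2 fold change 1.15 ± 0.23, FDR = 0.000821) and below injured hosts (log2 fold change -0.90 ± 0.18, FDR = 0.00285, and FDR = 0.0321 in the fit over all groups). Grafts in uninjured cord held 34.2, 34.8, 55.5, 31.2 and 17.6 CPM. In double crush the levels were 16.8, 4.75, 8.45, 13.6 and 8.02 CPM, all below the uninjured grafts. The 5-day grafts in SCI held 0, 1.87, 1.93, 12.9 and 11.3 CPM, below all 14-day ones (log2 fold change of 14 over 5 days 2.33 ± 0.81, FDR = 0.0803, and FDR = 2.36e-07 in the fit over all groups). The difference between double crush and uninjured cord was not called by edgeR (log2 fold change -1.47 ± 0.36, FDR = 0.0186) but was by DESeq2 (adjusted p = 0.00218) and in the fit over all groups (FDR = 0.000418).

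Dhrs3, the reductase that returns retinal to retinol and is itself induced by retinoic acid in many cells, rose on differentiation and followed serum up to 20%. NPC P15 held 1.43, 1.33, 1.78 and 1.69 CPM and spontaneous differentiation 9.6, 13.8, 13.3 and 13.1 CPM (log2 fold change 3.13 ± 0.20, FDR = 1.6e-07). Against NPC P15 D3 the log2 fold change was 5.56 (FDR = 1.98e-09). With 1% FBS the level dropped to 4.47, 4.12, 4.45 and 5.37 CPM (log2 fold change -1.42 ± 0.15, FDR = 0.000137, and FDR = 0.0429 in the fit over all groups).

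Above 1% serum the order turned. Dhrs3 reached 16.6, 10.4, 25.1 and 36.4 CPM in 5% FBS, 67, 45.2, 79.2 and 82.3 in 10% and 91.4, 110, 92.9 and 111 in 20%. The last was 22-fold above 1% FBS (log2 fold change 4.43 ± 0.10, FDR = 7.95e-12). With CNTF in 5% FBS the levels were 9.67, 11.5, 12.7 and 12.2 CPM, overlapping those without CNTF (log2 fold change -1.01 ± 0.31, FDR = 0.0256), and without 5% FBS replicate 2, the lowest of its group, the difference was -1.23 with FDR = 0.00172.

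In the cord no difference of Dhrs3 was detected between healthy hosts (median 49.5 CPM, 43.9 to 74.7, n = 9) and injured hosts (46.9, 93.7, 44.4, 50.4 and 70.1 CPM; FDR = 0.952). Grafts at 14 days in SCI held 27.7, 35.1, 44, 49.3 and 87.7 CPM, above NPC P15 in every library (log2 fold change 5.38 ± 0.44, FDR = 8.38e-07). Grafts in double crush held 163, 214, 139, 287 and 61.6 CPM and grafts in uninjured cord 28.5, 27.2, 23.7, 42.4 and 81.8 CPM, and the groups overlapped (log2 fold change 2.23 ± 0.40, FDR = 0.00461). The call was lost without uninjured replicate 1, 2 or 4 or double crush replicate 2 or 3 (FDR 0.0101 to 0.0155). The summed fibroblast markers of the double crush grafts, given above, did not overlap those of the uninjured grafts, and their part in the result was not tested.

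One library of grafts at 5 days in SCI, replicate 4, stood apart in Dhrs3 with 329 CPM against 36.1, 53.7, 55.2 and 49.6 CPM in the others. Its 8 myeloid markers summed to 15675 CPM, against 655 to 1236 CPM in the other 4 libraries. The same library was the highest of its group in Aldh1a2 (46.1 CPM) and Crabp2 (40.2 CPM) and the lowest in Aldh1a1 (165 CPM). The part of other cell types in its level of Dhrs3 was not tested. The difference between 14 and 5 days was not called for Dhrs3 (FDR = 0.385).

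Rarb, a nuclear receptor for retinoic acid and a classical target of it, was nearly absent from ESC (0.0253, 0.735, 0 and 0.369 CPM, with 2 of 4 libraries at the floor) and present in every other group. In NPC P15 it was 9.12, 5.89, 6.97 and 6.7 CPM (log2 fold change 4.58 ± 1.02, FDR = 0.00166). Among the NPC cultures the level differed between groups: P5 held 9.91, 9.86, 8.77 and 6.85 CPM, P30 27.7, 20.8, 31.3 and 30 CPM, D3 4.45, 3.73, 4.08 and 4.02 CPM and D2 23.2 to 35.6 CPM with a median of 30.1 (n = 6). The D2 libraries are shallow ones that name a single read file, so read type and derivation cannot be told apart for D2. From P5 to P30 Rarb rose 3.1-fold without overlap (log2 fold change 1.62 ± 0.15, FDR = 3.53e-08).

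NPC in hydrogel held 29.7, 37.2, 37.1, 25.7 and 43.4 CPM of Rarb and NPC in medium 8.69, 10.1, 9.08, 5.71 and 10.5 CPM, a ratio of 3.92 (log2 fold change 1.98). These values chose the gene and carry no test. Rarb was the largest increase only among the 9587 genes whose mean reached 10 CPM in medium or hydrogel. Among the 10679 genes that reached 5 CPM it came after Reln, and among the 12708 genes that reached 1 CPM its rank was 20, behind genes of low level led by Sstr4, 4930515G01Rik, S100a6, Gimap8 and Acta2. The limits of 5 and 10 CPM were chosen after the values were seen.

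Of the other genes, Dhrs3 was higher in hydrogel (1.70 ± 0.622 against 0.297 ± 0.327 CPM, log2 fold change 2.52, rank 8) and so was Crabp1 (8.82 ± 2.24 against 2.39 ± 1.32 CPM, log2 fold change 1.89, rank 22). Rlbp1 stood at 12.7 ± 2.50 against 20.4 ± 2.85 CPM, and Aldh1a3 at 3.67 ± 1.81 against 1.82 ± 0.679 CPM (SD, n = 5 for each). Dio2 was the largest fall of the 9, at 0.505 ± 0.586 against 1.21 ± 1.00 CPM (log2 fold change -1.25), with overlapping ranges. Its mean in medium rested in part on replicate 5 (2.93 CPM, against 0.475 to 1.13 CPM in the others). Aldh1a1 stood at 1.28 ± 0.527 against 2.07 ± 2.26 CPM (log2 fold change -0.68). The median of Aldh1a1 was the other way round, at 1.30 CPM in hydrogel and 0.973 CPM in medium. The median log2 fold change over all 13860 genes was 0.003. After 4 hours in hydrogel Rarb was 32.4, 37.1, 36.8, 30.6 and 34.8 CPM, inside the range of the hydrogel libraries pipetted without the wait.

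Those 5 libraries were above NPC P15 for Rarb (log2 fold change 2.26) and above NPC P15 D3 (log2 fold change 3.05). They too hold NPC in hydrogel, the condition for which Rarb was chosen, so these differences do not stand apart from that choice. Their range of 30.6 to 37.1 CPM overlapped those of NPC P30 and NPC P15 D2, and since the culture that was pipetted is not given, hydrogel and the source of the cells cannot be told apart in the comparison with NPC P15. Crabp1 was 8.72, 4.7, 9.12, 9.42 and 7.98 CPM after 4 hours in hydrogel, above NPC P15 (log2 fold change 3.50 ± 0.55, FDR = 4.02e-05) and, by 1.06 on the log2 scale, above D3 (FDR = 0.00255). Rlbp1 differed in sign with the reference, at -0.38 against NPC P15 (FDR = 0.21) and 1.41 against D3 (FDR = 0.000439).

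**Figure D3:**
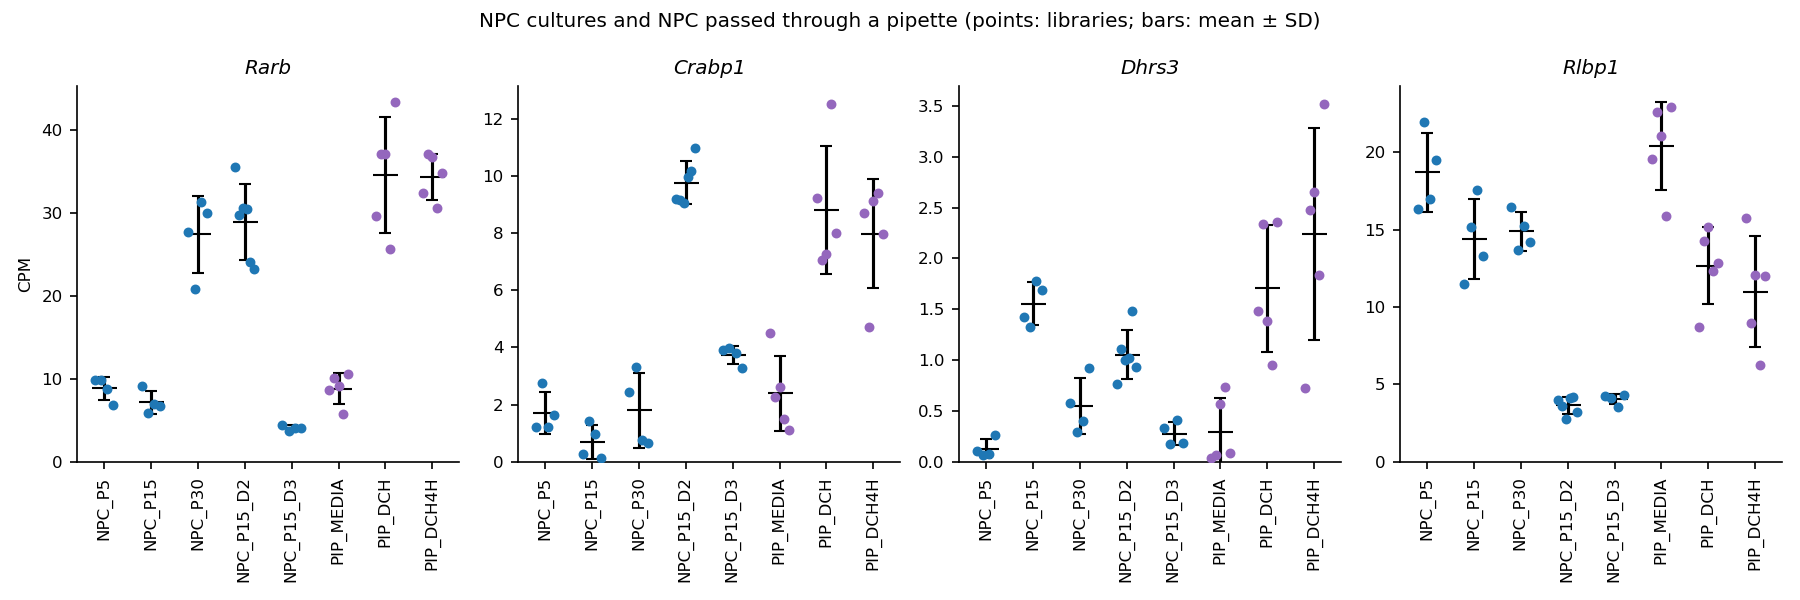
Rarb, Crabp1, Dhrs3 and Rlbp1 (CPM) in each library (points) of the 5 NPC cultures (blue) and of NPC passed through a pipette (purple) in medium, in hydrogel, and after 4 hours in hydrogel, with the mean ± SD. Rarb in hydrogel (25.7 to 43.4 CPM) was above all libraries in medium (5.71 to 10.5 CPM) and overlapped NPC P30 (20.8 to 31.3 CPM) and D2 (23.2 to 35.6 CPM).

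In differentiating NPC Rarb was low and moved with serum and CNTF together. Spontaneous differentiation held 4.35, 3.8, 3.04 and 3.62 CPM, under NPC P15 (log2 fold change -0.83 ± 0.21, FDR = 0.00495). The call was lost without NPC P15 replicate 1 or spontaneous differentiation replicate 3 or 4 (FDR 0.0163 to 0.0169) and in the fit over all groups (FDR = 0.031), and against NPC P15 D3 the difference was -0.07 (FDR = 0.694). FBS at 1% gave 5.85, 6.33, 7.69 and 6.22 CPM, above all libraries without serum (log2 fold change 0.84 ± 0.15, FDR = 0.00385), a call lost without spontaneous differentiation replicate 3 or 4 or 1% FBS replicate 2 or 3 (FDR 0.0126 to 0.0166) and in the fit over all groups (FDR = 0.147).

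From 1% to 20% FBS Rarb fell to 4.79, 4.12, 3.99 and 5.15 CPM (log2 fold change -0.57 ± 0.14, FDR = 0.00243). This call was lost without 20% FBS replicate 2 or 3 (FDR = 0.0101 and 0.0102) and in the fit over all groups (FDR = 0.176). CNTF in 5% FBS gave 16.8, 16.2, 17.6 and 17 CPM against 8.6, 8.84, 9.77 and 7 CPM in 5% FBS alone (log2 fold change 0.91 ± 0.09, FDR = 1e-04). CNTF without serum gave 2.65, 3.14, 3.04 and 2.73 CPM, overlapping its controls (log2 fold change -0.34 ± 0.15, FDR = 0.0969). The effect of CNTF was higher with serum than without by 1.24 ± 0.16 on the log2 scale (FDR = 2.44e-05).

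In the cord Rarb lay between 3.87 and 20.8 CPM. Healthy hosts had a median of 7.03 CPM (3.87 to 7.71, n = 9) and injured hosts 14.6, 9.62, 10, 11.2 and 5.73 CPM, not called (log2 fold change 0.48 ± 0.19, FDR = 0.0423), but called without injured host replicate 5 (0.61, FDR = 0.00866). The 4 graft groups ran from 5.99 to 20.8 CPM and overlapped one another. Grafts in SCI at 14 days were not called against NPC P15 (log2 fold change 0.65 ± 0.29, FDR = 0.0689) and were against D3 (1.32, FDR = 0.000844).

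**Figure D4:**
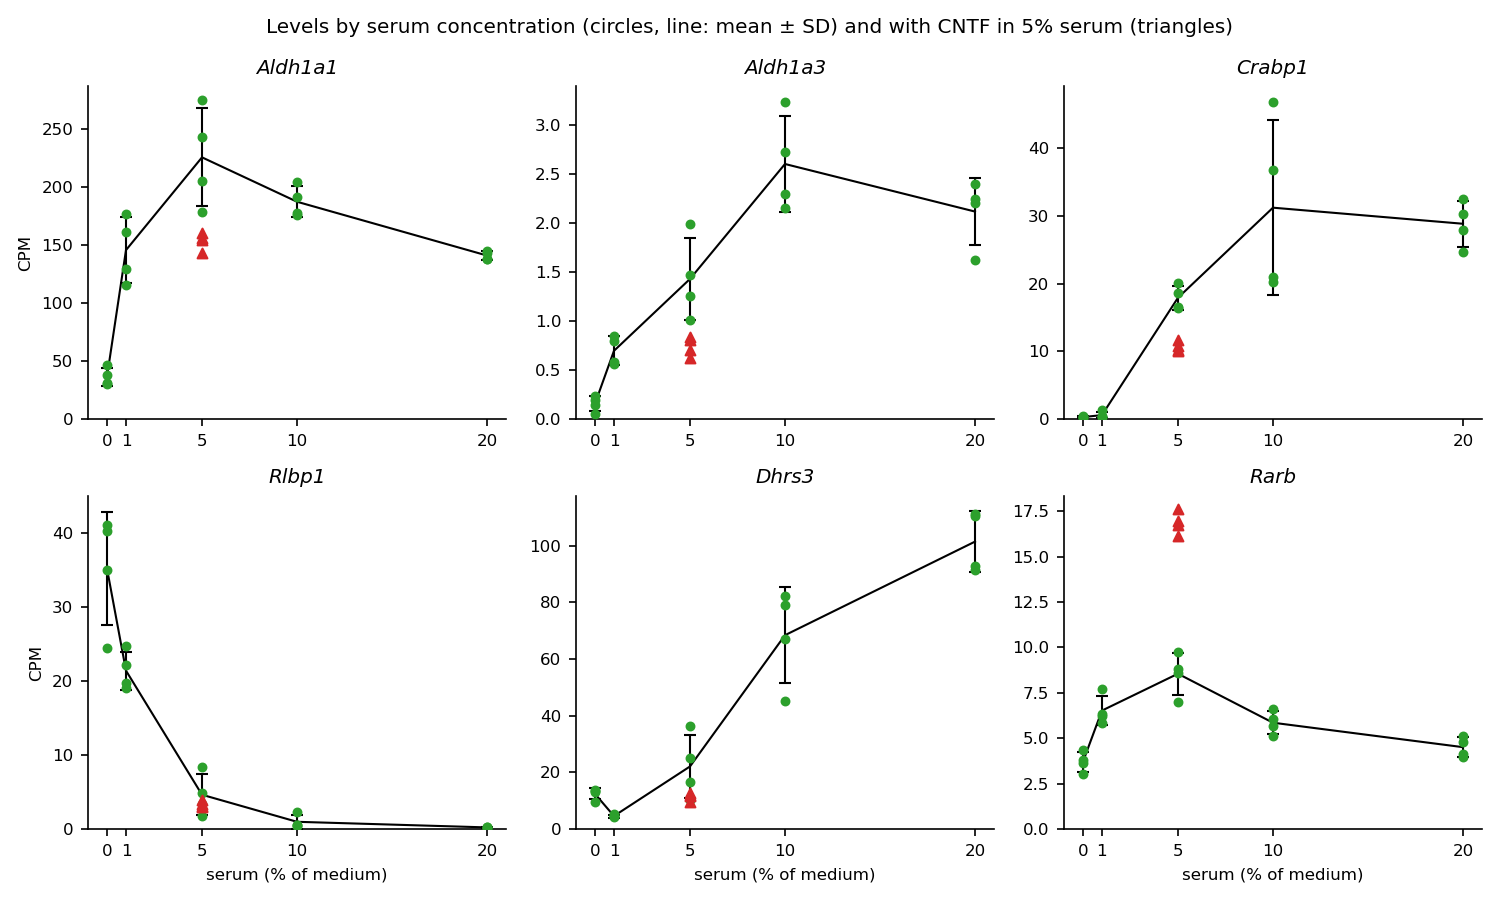
Levels (CPM) of 6 genes in each library (circles) by serum concentration (x axis, % of medium; 0 is spontaneous differentiation), with the mean ± SD (line and bars), and with CNTF in 5% serum (red triangles). Rlbp1 fell from 35.2 CPM on average without serum to 0.226 CPM at 20%, Dhrs3 rose to 101 CPM, and CNTF in 5% serum set Rarb above, and Aldh1a1, Aldh1a3 and Crabp1 below, 5% serum alone.

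Markers of other cell states also moved with serum. The 9 fibroblast genes summed to 17.8 to 21.6 CPM without serum, 30.8 to 135 CPM in 1% FBS, 184 to 578 CPM in 5% and 522 to 621 CPM in 20%, and the 4 myofibroblast genes to 46.3 to 61.6, 85.3 to 146, 643 to 792 and 3188 to 4295 CPM. The 8 astrocyte genes summed to 12657 to 16409, 23560 to 27700, 15994 to 23072 and 5842 to 6485 CPM in the same order. With CNTF in 5% FBS the fibroblast genes summed to 51.2 to 60.4 CPM and the myofibroblast genes to 400 to 460 CPM. Their part in the changes of Dhrs3, Rlbp1 and Crabp1 was not tested.

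Dio2, the deiodinase of astrocytes, was highest in healthy host astrocytes, with a median of 101 CPM (89.6 to 126, n = 9). Injured hosts held 17.6, 16, 23.2, 33.2 and 21.6 CPM, which was 21.6% of the healthy mean, without overlap (log2 fold change -2.40 ± 0.17, FDR = 4.72e-09). The shifts in summed astrocyte and oligodendrocyte genes given for Aldh1a1 hold for these hosts too, and the 8 myeloid genes had a median sum of 21.9 CPM in healthy and 389 CPM in injured hosts. Their part in the fall of Dio2 was not tested. All 17 groups of cultured cells had means of at most 2.03 CPM.

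Grafts gained Dio2. In SCI at 14 days the levels were 19.8, 6.82, 8.31, 22 and 19 CPM against 0.425, 1.15, 0 and 0.225 CPM in NPC P15 (log2 fold change 5.41 ± 0.96, FDR = 0.000381). At 5 days they were 18.2, 12.8, 13, 21.1 and 10.8 CPM, overlapping those at 14 days (FDR = 0.8). Uninjured cord gave 23.8, 27.1, 6.47, 40.4 and 37.7 CPM and double crush 85.1, 58.2, 41.5, 52.9 and 24.2 CPM, overlapping (FDR = 0.105). The summed astrocyte genes were 12849 to 19804 CPM in uninjured grafts and 6960 to 14486 CPM in double crush. The summed fibroblast genes were 1719 to 4509 CPM and 7289 to 27972 CPM in the same order. Their part in the levels of Dio2 in grafts was not tested. The effect of SCI at 14 days on Dio2 was higher in grafts than in hosts by 1.81 ± 0.47 on the log2 scale (FDR = 0.00515), a call lost without injured host replicate 2 (FDR = 0.0122) or graft replicate 4 in SCI (FDR = 0.0129).

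In culture Dio2 rose from 0.311, 0.227, 0.263 and 0.619 CPM in 1% FBS to 1.74, 0.817, 1.82 and 2.05 CPM in 20% (log2 fold change 2.12 ± 0.36, FDR = 0.000218). CNTF in 5% FBS gave 0.829, 0.922, 0.605 and 0.896 CPM against 2.52, 1.88, 2 and 1.71 (log2 fold change -1.39 ± 0.20, FDR = 0.000666), without overlap. These levels are a small part of those in the cord.

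A wider list of 73 other genes of retinoid and thyroid hormone handling, without the 9, was counted in the same fits. In spontaneous differentiation 25 of 54 tested were higher and 13 lower, with a median log2 fold change of 0.68 against 0.09 over all genes, of which 57.2% were called. The retinol dehydrogenase Rdh5 rose from 1.04 to 233 CPM, the lipogenic protein Thrsp, a target of thyroid hormone, from 5.32 to 161 CPM and the thyroid hormone receptor Thrb from 1.05 to 31.1 CPM (FDR at most 3.63e-07). From 1% to 20% FBS 26 of 57 were higher and 16 lower, where 60% of all genes were called, and the median was 0.26 against 0.00 over all genes. The retinoic acid hydroxylase Cyp26b1 rose from 2.71 to 97.3 CPM, and Thrsp fell from 144 to 7.51 CPM (FDR at most 5.28e-11).

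CNTF in 5% FBS left 6 of 57 higher and 8 lower, near the 23.3% of all genes called. Cyp26b1 stood at 0.879 ± 0.0917 CPM with CNTF and 17.2 ± 7.89 CPM without (log2 fold change -4.36 ± 0.33, FDR = 2.54e-05) and lipoprotein lipase (Lpl) at 13.0 and 57.9 CPM (FDR = 7.94e-06). CNTF alone had 7 of 54 higher and 11 lower (19.9% of all genes called), IGF-1 1 higher and 4 lower of 54 (6.55%), and 1% FBS 9 higher and 5 lower of 55 (8.78%). Tgm2, a transglutaminase induced by retinoic acid, rose with 1% FBS from 32.5 to 79.5 CPM (FDR = 4.28e-05).

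In the step from ESC to NPC P15 27 of 56 were higher and 17 lower, where 67.2% of all genes were called, with a median log2 fold change of 1.02 against -0.10 over all genes. Stra8, which answers retinoic acid in germ cells, went from 12.9 CPM to 0 in every library, the homeobox gene Cdx1 fell from 25.1 to 0.00625 CPM and Hoxa5 rose from 0.38 to 88.0 CPM (FDR at most 1.34e-07). From P5 to P30 23 of 51 were higher and 5 lower (35.5% of all genes called), among the former the receptor Rara, from 20.9 to 66.6 CPM (FDR = 1.89e-10). NPC kept 4 hours in hydrogel had 8 of 48 higher and 8 lower against NPC P15 (30.9% of all genes called), and 1 of 48, the endocytic receptor Lrp1, lower against hydrogel without the wait (FDR = 1.99e-05, with 0.32% of all genes called).

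Injury in host astrocytes had 18 of 62 higher and 21 lower, where 41.1% of all genes were called, with a median log2 fold change of -0.05 against 0.02 over all genes. Crym, which binds thyroid hormone in the cytosol, rose from 0.513 ± 0.279 to 33.1 ± 5.00 CPM, Cyp1b1, a cytochrome P450, from 1.14 to 34.4 CPM and Cyp26b1 from 1.15 to 13.1 CPM (FDR at most 2.89e-09). Grafts at 14 days in SCI against NPC P15 had 28 of 58 higher and 6 lower (52% of all genes called; median 1.08 against 0.23), including among the former the retinol receptor Stra6 (12.4 ± 4.87 against 0.0112 CPM), Cyp26a1 (20.1 ± 14.1 against 0.014 CPM) and Rarres2 (76.1 against 0.0855 CPM). The effect of SCI differed between grafts and hosts for 20 of 64, with 12 higher in grafts and 8 lower (16.8% of all genes called).

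Grafts in SCI against uninjured cord had 4 of 57 higher and none lower by edgeR, where 4.64% of all genes were called, with Cyp26a1 at 20.1 ± 14.1 against 0.417 ± 0.472 CPM (log2 fold change 5.92 ± 1.13, FDR = 0.0045) and the fatty acid and retinoic acid carrier Fabp5 at 77.2 against 31.7 CPM (FDR = 0.00212). Double crush against uninjured cord had 4 of 58 higher and none lower (4.19% of all genes called), led by Lpl at 160 against 26.9 CPM (FDR = 0.00281). From 5 to 14 days 2 of 59 were higher and 4 lower (5.3% of all genes called), with Crym at 27.9 CPM at 5 days and 1.87 CPM at 14 days (FDR = 0.00133). Against injured hosts, grafts in SCI had 8 of 61 higher and 6 lower (14.6% of all genes called), and Cyp26a1 was 0.103 CPM and Crym 33.1 CPM in those hosts (FDR = 4.69e-05 and 7.47e-05).

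The pattern of each gene over the 23 group means was set beside those of 14157 genes expressed at 5 CPM or more in any group, as Pearson's r of log2(CPM + 1). The groups share libraries' depth and cell source in part, so r is a description. Aldh1a2 lay nearest to Abcb1a (r = 0.994), Mrc1 and Fgd2, of which Abcb1a is a transporter of brain vessels and Mrc1 a receptor of perivascular macrophages, and Crabp2 lay nearest to Arhgap4 (0.988), Arap3 and Esam. Aldh1a1 lay nearest to Slc39a12 (0.987), a zinc transporter, E030003E18Rik and Pink1, and Dio2 to Ripor2 (0.976), Gdf10 and Fibin.

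Dhrs3 lay nearest to the matrix genes Fmod (0.939), Olfml1 and P4ha3. The other genes had no close neighbour above 0.9: Rarb lay nearest to Pdxk (0.893), Cpd and Kcnma1, Aldh1a3 to Rerg (0.892), Hic1 and Gla, Rlbp1 to Arhgef3 (0.876), Rap1gap and Pcyt2, and Crabp1 to Rab11fip1 (0.839), Fam118a and Gpc4. Within the 9 genes r was highest between Aldh1a2 and Crabp2 (0.964) and between Aldh1a1 and Dhrs3 (0.910), and lowest between Crabp1 and Rlbp1 (-0.808).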

How the data were processed

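The authors joined lanes and trimmed reads in Galaxy with Trimmomatic, used HISAT2 for alignment to mm10 and featureCounts for the counts of each gene, as the submitters' processing notes, the methods of the study and the file headers state. The deposited values are raw counts per Entrez gene, 1 table per library, with no other samples' columns (0 left out). Depth per library is given in the report, and counts of 3 or fewer limit what can be said of a gene. Libraries were grouped by their labels. Of 209 pairs of libraries within groups, none agreed within sampling noise (smallest chi-square per gene 2.48), so all were kept.

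CPM are counts over the library total, and FPKM divide them by union-exon length from GENCODE M21. Comparisons used edgeR 4.0.16 under R 4.3.3 (glmQLFit, glmQLFTest, TMM scaling, filterByExpr), 2 groups to a fit or 4 for each of the 2 differences of effects, and called at FDR below 0.01. The standard error is the fold change over the square root of F. Fits were tested on simulated data. Symbols and promoters came from RefSeq on GRCm38. The text names all 9 members, up to 3 genes of the wider list per comparison with the largest called changes that reached 5 CPM in either group, and the 3 nearest genes by r; some genes of the wider list are not reported here. The members and lists were chosen with earlier results of these data known. Alternatives were DESeq2 1.42.0, its size factors, no filter, FDR below 0.05, all 23 groups in 1 fit, a replicate block, NPC P15 D3 as reference and each library left out. For the 2 differences of effects, leaving out libraries and FDR below 0.05 were chosen after seeing the data. Figures used matplotlib 3.10.9.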

Additional observations from a re-analysis of the deposited data

Results flagged for a closer look

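In groups of 4 to 10 libraries, 7 of the 135 sets of values tested had a highest or lowest library farther from the rest than Dixon's 95% limit, where chance gives about 1 in 20. Aldh1a1 was 5.40 CPM in replicate 5 of NPC kept 4 hours in hydrogel, against 0.615 to 1.83 CPM in the others. Aldh1a2 was 16.4 CPM in ESC replicate 1, against 9.63 to 10.3 CPM, and 32.2 CPM in replicate 5 of grafts at 14 days in SCI, against 1.70 to 7.01 CPM. Crabp2 was 15.4 CPM in replicate 4 of those grafts, against 2.87 to 6.47 CPM. Rlbp1 was lowest in ESC replicate 4 with 6.67 CPM, against 11.1 to 11.5 CPM. Dhrs3 was 328.5 CPM in replicate 4 of grafts at 5 days in SCI, against 36.1 to 55.2 CPM. Dio2 was 2.93 CPM in replicate 5 of NPC in medium, against 0.475 to 1.13 CPM.

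The effect of 1 treatment or injury differed between conditions, by edgeR tests of the difference itself, for 6 results. For Rarb the effect of CNTF was 1.24 higher on the log2 scale with 5% FBS than without. The effect of SCI in grafts against that in host astrocytes differed by 1.11 for Aldh1a1, -4.19 for Aldh1a2, -3.62 for Aldh1a3, -4.84 for Crabp2 and 1.81 for Dio2, all on the log2 scale.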

How the results depend on the processing

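Of 2439 recomputed fold changes of the 9 genes, 2317 kept their side of the threshold, 79 lost the call and 42 gained one. In 1 the sign changed with a call in a fit: Rlbp1 in NPC kept 4 hours in hydrogel, at -0.383 against NPC P15 and 1.413 against NPC P15 D3. Changes of sign without a call in either fit are counted among the 2317. An example is Crabp2 in spontaneous differentiation, at 1.462 against NPC P15 and -0.155 against NPC P15 D3. The causes were not tested. Taking the replicate number as a block, the members called became 3 for spontaneous differentiation against NPC P15, 0 each for CNTF, IGF-1, 14-day against 5-day grafts and double crush, 1 each for SCI against uninjured grafts and against injured hosts, and 3 for the difference in injury effects, and single calls were lost for Aldh1a3 in hosts (2.64, FDR = 0.013), Rarb in 1% FBS (FDR = 0.0181) and Aldh1a3 in CNTF with 5% FBS (FDR = 0.0246); the numbers do not pair the samples, since same-numbered libraries had correlations of their deviations from -0.197 to 0.272, with 4 of 70 pairs over 0.1. In 1 fit of all 23 groups they became 7 for NPC P15 against ESC, 2 for P30 against P5, 0 for CNTF, 0 for IGF-1, 1 for 1% FBS, 0 for CNTF in 5% FBS, 2 for SCI and 3 for double crush against uninjured grafts, and 1 for grafts against injured hosts. DESeq2 called 1 for SCI and 2 for double crush grafts. FDR below 0.05 called 2 for P30, 2 for IGF-1, 2 for double crush and 3 for the difference in CNTF effects. NPC P15 D3 as reference called 4 after 4 hours in hydrogel. On leaving out each library, counts ran from 4 to 4 for NPC P15 against ESC, 1 to 1 for P30, 3 to 6 for spontaneous differentiation, 0 to 1 for CNTF, 0 to 2 for IGF-1, 2 to 5 for 1% FBS, 5 to 6 for 20% FBS, 4 to 6 for CNTF in 5% FBS, 0 to 0 for 4 hours in hydrogel against hydrogel and 2 to 2 against NPC P15, 5 to 6 for hosts, 6 to 6 for grafts against NPC P15, 0 to 2 for 14 against 5 days, 0 to 1 for SCI and 0 to 1 for double crush, 2 to 2 for grafts against hosts, 1 to 3 for the difference in CNTF effects and 4 to 5 for that in injury effects.

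Counts over all genes moved more. Called genes were 979 for IGF-1 against spontaneous differentiation, with 0 to 5724 on leaving out a library, 3565 by DESeq2, 4530 at FDR below 0.05, 399 in the fit of all groups and 1 with the block. They were 734 for SCI against uninjured grafts (232 to 1576, 2034, 2203, 4956 and 677 in that order), 666 for double crush (197 to 864, 1827, 1804, 4462 and 35), 811 for 14 against 5 days (350 to 1191, 1849, 1912, 4263 and 269), 2425 for grafts against injured hosts (1644 to 2768, 3995, 4142, 4970 and 1177), 1312 for 1% FBS (628 to 1975, 2468, 2858, 572 and 833), 2961 for CNTF (2027 to 6049, 4266, 5031, 1143 and 2059), 3564 for CNTF in 5% FBS (1968 to 3908, 4931, 6058, 419 and 2516) and 44 after 4 hours in hydrogel (37 to 49, 164, 127, 168 and 49). In the fit of all groups they were 2414 in place of 5182 for P30 and 4939 in place of 9227 for 20% FBS; with the block 4251 in place of 6933 for hosts and 1719 in place of 2947 for the difference in injury effects, and that in CNTF effects was 3600, with 2702 to 6049 on leaving out a library and 6168 at FDR below 0.05.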
